A study of Mus musculus with 28 samples.

Results

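The regions described here were stretches of open chromatin in periosteal skeletal stem/progenitor cells (pSSPCs, pSSCs in the labels) that were listed in every control library and in no *Zmpste24* conditional knockout (CKO) library once all libraries had been brought to the same number of peaks. There were 800 such lost regions among the 83296 regions found in the 6 pSSPC libraries (0.96%). Chromatin accessibility was measured by ATAC-seq, in which a transposase inserts adapters into open DNA, in 3 control and 3 CKO libraries of pSSPCs and in the same numbers from the growth plate (gpSSPCs), and RNA was sequenced from the same 4 groups. The labels gave 20-week-old mice, the Prx-Cre driver and the genotype field PrxCre; Z24fl/fl for control and CKO samples alike, so the groups were taken from the sample titles, and the genotype of the controls is not told apart further in the labels. The loxP sites flank exon 6 of *Zmpste24*, and Prx1-Cre is active in limb bud mesenchyme, so that other tissues of these mice keep the gene. The pSSPCs had been sorted from periosteum as CD31-CD45-Ter119- cells with the Ai9 reporter and Sca1, and the gpSSPCs from growth plate as Ai9+ CD73+ cells. The labels do not say which libraries came from which animals, so the spread between libraries may be partly technical. The markers of the sort were read in the RNA. *Prrx1*, the gene whose enhancer drives the Cre, stood at 629, 326 and 349 CPM (counts per 1000000 counts) in pSSPC control libraries 1 to 3 and at 173, 189 and 196 CPM in CKO libraries 1 to 3. *Ly6a*, which encodes Sca1, stood at 1252, 2806 and 2810 CPM in controls and at 1241, 2896 and 2982 CPM in CKO libraries. *Ptprc*, which encodes the leukocyte marker CD45, was at 0, 0 and 0.394 CPM in controls and at 0 in all 3 CKO libraries, whereas *Pecam1* (CD31) was at 0, 22.3 and 23.8 CPM in controls and 0, 30.0 and 26.4 CPM in CKO libraries.

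*Zmpste24* encodes the metalloprotease that removes the farnesylated tail of prelamin A. Without it prelamin A stays at the nuclear envelope, where the lamina holds large stretches of silent chromatin, and mice lacking the enzyme are known for progeroid bone loss. Active promoters and enhancers are depleted of nucleosomes, and regions far from a start site differ more between cell types than promoters do.

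For 5 genes whose promoter was among the lost regions, the 250 bases before the start site are given. Peak heights of *Hmga2*, *Tbkbp1* and *Nfix* overlapped between control and CKO libraries on 1 or both of the scales used below. The bases were read from the RefSeq annotation of GRCm38.p6, the assembly behind mm10, 5′ to 3′ on the strand of the gene. Capitals mark matches to the GC box (GGGCGG), the E-box CAGCTG or the TEAD motif (GGAATGT), searched on both strands. *Angptl7* encodes a secreted angiopoietin-like factor, *Mrvi1* (now Irag1) a regulator of calcium release in smooth muscle, *Hmga2* an architectural chromatin protein of growing tissues, *Tbkbp1* an adaptor of the kinase TBK1, and *Nfix* a nuclear factor I transcription factor. The windows were chr4:148500463-148500712, chr7:110982462-110982711, chr10:120476470-120476719, chr11:97151507-97151756 and chr8:84773411-84773660 in that order, all on the minus strand.
Angptl7: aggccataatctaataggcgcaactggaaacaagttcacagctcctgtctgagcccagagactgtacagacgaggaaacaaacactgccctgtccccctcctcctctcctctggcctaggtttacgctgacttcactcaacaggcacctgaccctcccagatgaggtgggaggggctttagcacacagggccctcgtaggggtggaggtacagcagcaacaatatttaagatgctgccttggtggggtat
Mrvi1: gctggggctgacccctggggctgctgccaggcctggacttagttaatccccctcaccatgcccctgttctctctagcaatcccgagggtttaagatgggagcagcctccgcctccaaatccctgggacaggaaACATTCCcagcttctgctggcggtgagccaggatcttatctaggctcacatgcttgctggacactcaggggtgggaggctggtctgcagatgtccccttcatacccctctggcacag
Hmga2: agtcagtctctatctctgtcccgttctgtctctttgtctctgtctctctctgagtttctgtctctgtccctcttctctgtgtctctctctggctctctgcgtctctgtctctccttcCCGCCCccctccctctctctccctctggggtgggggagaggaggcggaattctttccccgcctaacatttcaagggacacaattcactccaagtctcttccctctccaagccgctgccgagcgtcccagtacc
Tbkbp1: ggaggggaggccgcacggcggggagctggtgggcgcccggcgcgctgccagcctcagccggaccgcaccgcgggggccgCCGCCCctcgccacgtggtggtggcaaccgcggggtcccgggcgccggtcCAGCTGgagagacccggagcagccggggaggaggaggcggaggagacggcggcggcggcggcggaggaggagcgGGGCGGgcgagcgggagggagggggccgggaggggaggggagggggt
Nfix: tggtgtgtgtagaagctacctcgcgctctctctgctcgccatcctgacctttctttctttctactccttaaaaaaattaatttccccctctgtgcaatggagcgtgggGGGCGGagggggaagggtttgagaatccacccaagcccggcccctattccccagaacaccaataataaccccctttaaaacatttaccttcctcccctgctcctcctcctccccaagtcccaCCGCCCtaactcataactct
The first 4 windows lay wholly inside a lost region, and 228 of the 250 bases of the *Nfix* window did. The *Angptl7* window held none of the 16 motifs searched. Across the 17 RefSeq windows that a lost region touched, 6 held a GC box, 5 held CAGCTG, 2 held the TEAD motif and none held the AP-1 motif TGANTCA or the RUNX motif AACCACA. Of all 32851 RefSeq windows, 32.7% held a GC box, 13.0% CAGCTG, 3.25% the TEAD motif, 6.75% the AP-1 motif and 4.40% the RUNX motif, and of the 13226 windows under regions open in all 6 libraries 61.9% held a GC box. These are matches of letters and not bound sites.

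The first question was how completely the lost regions were closed in CKO pSSPCs. Most of them still had a peak in the full list of at least 1 CKO library, at a rank beyond the limit, as the rule requires. In the full CKO lists, before shortening, 328 of the 800 (41.0%) had a peak in CKO 1, 524 (65.5%) in CKO 2 and 722 (90.2%) in CKO 3. The full lists held 72346, 84019 and 101564 peaks in CKO 1 to 3, against 63495, 59186 and 79692 in control libraries 1 to 3. The CKO libraries held 17894469, 15115534 and 46756821 tags after filtering, against 13932350, 12250713 and 26371117 in control libraries 1 to 3, and library 3 was the deepest of each group. A peak was present in all 3 full CKO lists for 233 regions, in 2 for 350, in 1 for 175 and in none for 42 (5.25%). The lost regions were weak peaks already in the controls. Their median summit stood at 1.22, 0.980 and 0.986 RPM (tags at the summit per 1000000 tags of the library after filtering) in control libraries 1 to 3, against 3.23, 2.78 and 2.96 for the regions open in all 6 libraries. Where the full CKO lists held a peak, its median summit was 0.726, 0.860 and 0.620 RPM in CKO 1 to 3, against 2.85, 3.84 and 2.35 for the regions open in all 6.

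Because libraries differed in signal to background, each height was also expressed relative to the library's own median over the regions open in all 6 libraries. On this scale the median lost region reached 37.8%, 35.3% and 33.3% in the controls and, where called, 25.5%, 22.4% and 26.4% in the CKO libraries. With a missing peak counted as lowest, every control stood above every CKO library in 558 of the 800 regions (69.75%), against 11.3% of all 43117 regions with a peak in all 3 controls. On RPM alone the count was 514 (64.25%), against 5.45%. The rule that chose the regions used the same libraries, so these heights, and the ranks that follow, describe the members and test nothing. Their median rank among the peaks of a library, ordered by −log10 q, was 44684, 44779 and 48316 in the controls, where places up to 59186 were kept, and 64893, 70124 and 72595 in CKO 1 to 3 where a peak was called. Close to the limit, 138, 120 and 146 lost regions lay within 5000 places behind it in CKO 1 to 3. The nearest of them ranked 59255, 59252 and 59238, and the nearest region kept out by a CKO peak ranked 59155, 59031 and 59134. In depth the limit meant that a peak of 6 tags was still kept in control 2, the shallowest library, so single heights carry a large counting error.

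**Figure D1:**
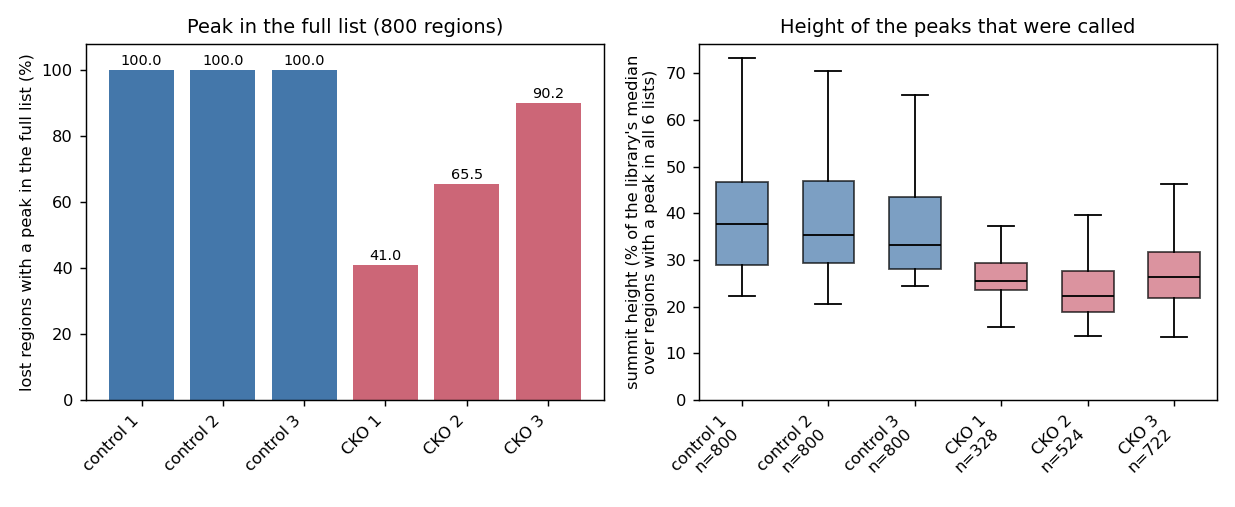
Left, percent of the 800 lost regions with a peak in the full list of each pSSPC library; right, summit height of the peaks called, as a percent of the library's median over regions open in all 6 libraries (line, median; box, quartiles; whiskers, the farthest values within 1.5 box lengths; values beyond are not drawn). All controls are at 100% by the rule, CKO 1 to 3 at 41.0%, 65.5% and 90.2%, and the CKO boxes sit lower, with medians of 25.5%, 22.4% and 26.4% against 37.8%, 35.3% and 33.3%.

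The 42 regions with no peak in any full CKO list had CKO signal under the calling limit, and no CKO height is known for them. They were narrow, with a median width of 424.5 bp, and 20 lay in introns, 20 between genes and 2 at promoters. The lowest of the 3 control summits ranged from 0.571 to 1.71 RPM over these regions, with a median of 0.825. The highest lay at chr11:98738313-98738586, 3362 bp upstream of *Thra*, the thyroid hormone receptor alpha, with 1.87, 2.29 and 1.71 RPM in control libraries 1 to 3. Next came chr4:13723277-13723535, 20030 bp upstream of *Runx1t1*, a corepressor of the ETO family, with 2.66, 1.80 and 1.71 RPM. A region in an intron of *Csf1*, the macrophage and osteoclast growth factor, at chr3:107754636-107755008 had 1.79, 1.71 and 1.48 RPM. In these 3 regions no control library was below 1.48 RPM. *Cald1*, which encodes the actin-binding protein caldesmon, had an intronic region at chr6:34714653-34714924 with 1.65, 1.39 and 1.33 RPM. The region at chr12:4813627-4813988 near *Sf3b6*, a spliceosome subunit, varied more, at 1.29, 2.37 and 1.63 RPM. One promoter among them, chr7:40901225-40901489, belonged to the noncoding gene *A230077H06Rik*, which overlaps *Vstm2b*. The nearest protein-coding gene of another region, chr13:119050101-119050431, was *Fgf10*, a limb bud growth factor that started 335567 bp away, and this region had 0.861, 1.14 and 0.910 RPM.

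**Figure D2:**
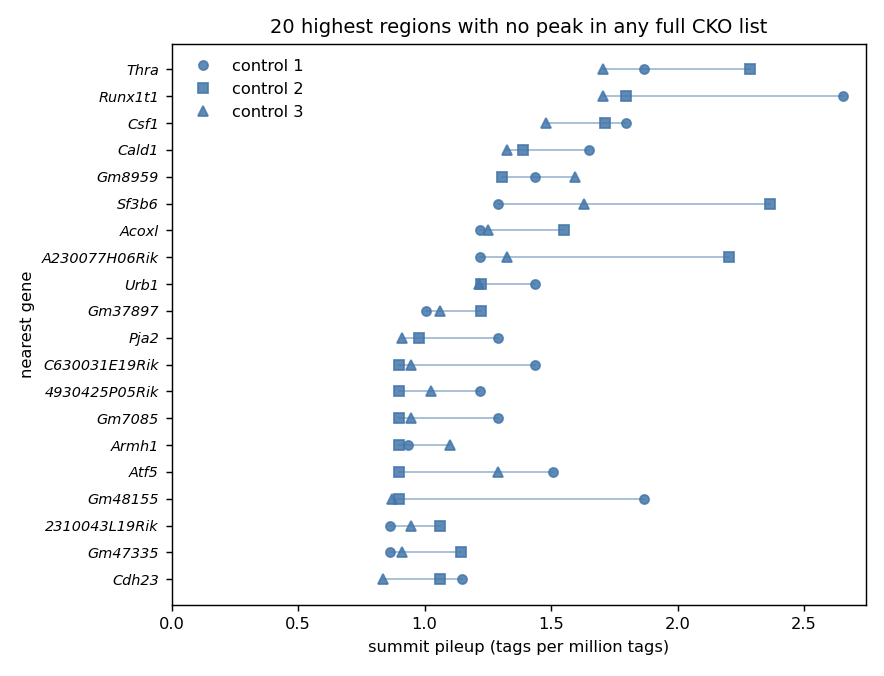
Summit pileup, in RPM, in control libraries 1, 2 and 3 for the 20 highest of the 42 regions with no peak in any full CKO list, named by the nearest gene. The regions near Thra and Runx1t1 stand highest, with the lowest control at 1.71 in both.

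By position the lost regions were mostly distal. Of the 800, 58 (7.25%, or 4.35% of the regions lost with full lists) lay within 1 kb of an annotated start site, 22 (2.75%) in other exons, 367 (45.9%) in introns and 353 (44.1%) between genes. Regions open in all 6 libraries lay at promoters in 34.3% and all regions in 20.0%. The share at promoters was about as low in other classes that differed between libraries, at 8.59% of regions listed in 3 control and 1 CKO library and 7.22% of regions gained in CKO (3 CKO and no control library). The median distance from a lost region to the nearest start site was 18059 bp, against 6835 bp for regions open in all 6, 15480 bp for those in 3 control and 1 CKO library and 17046 bp for gained regions. More than 50 kb from a protein-coding start lay 397 of the 800 (49.6%), against 29.2%, 43.8% and 42.4% in the same classes and 36.2% of all regions. They were also narrow, with a median of 560.5 bp and quartiles of 435 and 730.5 bp, against 983 bp for regions open in all 6 and 639 bp for gained regions. The median gap to the nearest region open in all 6 libraries was 14828 bp, and 53 lost regions (6.62%) had one within 1 kb, as did 7.21% of regions listed in 3 control and 1 CKO library and 6.35% of gained regions.

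**Figure D3:**
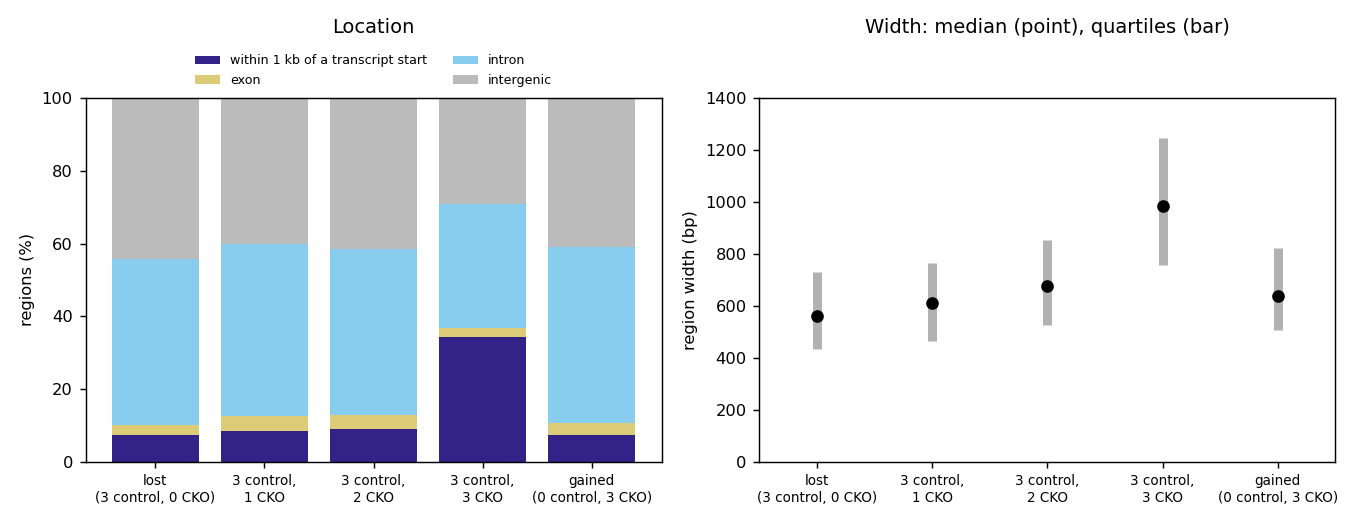
Share of regions by location (%) and region width (bp, median with quartiles) for lost regions and the comparison classes. Lost regions lay at promoters in 7.25%, against 34.3% of the regions open in all 6 libraries, and had a median width of 560.5 bp against 983 bp.

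The start sites of 26 protein-coding genes were reached within 1 kb. They included *Kcna2* (a potassium channel), *Musk* (the kinase of the neuromuscular junction), *Syp* (synaptophysin) and *Trpm3* (a cation channel), *Hmga2*, the hedgehog effector gene *Gli1* and *Furin*, the proprotein convertase. The *Angptl7* region, chr4:148500402-148500931, had 1.15, 1.22 and 1.02 RPM in control libraries 1 to 3, no peak in CKO 1, and 0.794 and 0.428 in CKO 2 and 3. Every CKO value there was below every control value. *Dcstamp*, the cell fusion gene of osteoclasts, had a region at chr15:39746113-39746941 with 2.15, 1.88 and 1.18 RPM in controls and a peak in CKO 3 alone, at 0.471. By contrast, the *Gli1* region (chr10:127341776-127342493) stood at 2.80, 2.04 and 2.05 RPM in controls, was not called in CKO 1, and stood at 2.32 and 1.45 in CKO 2 and 3, so that its groups overlapped on this scale. In relative height its groups did not overlap, at 86.7%, 73.5% and 69.2% in controls against 60.3% and 61.8% in CKO 2 and 3. The *Nfix* region (chr8:84773399-84773638) was 240 bp wide and lay 191 bp from a region open in all 6 libraries. It stood at 3.01, 3.59 and 2.16 RPM in controls and at 1.84 in CKO 3, with no peak in the other CKO libraries. In relative height the *Nfix* groups overlapped, with CKO 3 at 78.2% and control 3 at 73.1%. The lost regions of *Tnfsf13*, *Furin*, *Usp2*, *Tbkbp1* and *Fbxw17* were as near to such a region, at 140, 206, 200, 195 and 107 bp. At *Furin* and *Tbkbp1* the groups overlapped both in RPM and in relative height, with no peak in CKO 1. *Furin* had 2.44, 2.04 and 1.97 RPM in controls and 2.71 and 1.52 in CKO 2 and 3. *Tbkbp1* had 1.79, 1.31 and 1.67 against 1.72 and 1.20 RPM. *Hmga2*, also without a peak in CKO 1, overlapped in RPM alone, at 1.29, 1.06 and 0.986 against 1.26 and 0.770.

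The lost regions were spread over the genome. Chromosome X had the highest share, 26 of 1940 regions (1.34%), and chromosome 17 the lowest, 19 of 3409 (0.557%), apart from Y, where none of 5 was lost. Chromosome X also had the lowest share of gained regions apart from Y, 18 of 1940 (0.928%, against 2.21% of all regions). The median distance to the next lost region was 814034 bp, and 121 of the 800 (15.1%) had another within 100 kb. Regions lost with full lists had such a neighbour in 2.90% and regions lost with lists of 29593 peaks in 6.95%, and leaving out control 2 or control 3 gave 27.1% and 25.3%, with more regions lost. With the lists as used, the share was 31.5% for the 1843 gained regions (2.21% of all regions) and 19.6% for the 1374 regions listed in 3 control and 1 CKO library, classes that hold more regions. With regions joined over 100 kb, 679 lost regions stood alone, 56 pairs formed, and 3 groups held 3. Of these, chr2:75639462-75730342 lay at *Hnrnpa3*, which encodes an RNA-binding protein, and *Nfe2l2*, which encodes the oxidative stress regulator NRF2. Another, chr16:44600261-44644401, lay at *Boc*, a hedgehog coreceptor gene, and *Nepro*, and the last at *Dtwd2* on chromosome 18. By nearest protein-coding gene, *Acvr2a* (an activin receptor), *Flrt2* (a cell adhesion protein) and *Tbx3* (a limb T-box factor) had 4 lost regions each, and *Dtwd2*, *Epha4*, *H2al1j*, *Hnrnpa3*, *Maf*, *Med13l*, *Nampt* and *Ptprt* had 3 each. These were 11 of the 717 nearest protein-coding genes. The counts were not set beside the number of all regions nearest to each gene, so they do not show a concentration of loss. At *Zmpste24* itself, chr4:121059237-121098241, the promoter region was open in all 6 libraries, at 1.72, 1.47 and 1.29 RPM in controls and 1.06, 1.98 and 1.43 in CKO libraries. No lost region lay within 1 Mb of it, and the nearest was 3812859 bp away.

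In gpSSPCs, whose libraries played no role in the choice and held 12941435 to 40668538 tags, few of the lost regions ranked among the 59186 leading peaks in either genotype. A peak in the lists shortened to that length was present in 17.8%, 21% and 18.1% of the 800 in gpSSPC control libraries 1 to 3 and in 16.6%, 18.5% and 16.6% in gpSSPC CKO libraries 1 to 3. The means, 19.0 ± 1.78% and 17.2 ± 1.08% (SD, n = 3 each), lay about 1 SD apart and the groups overlapped, although at each library number the CKO share was below the control share. In the full gpSSPC lists the shares were higher, at 39.1%, 35.2% and 30.5% in controls and 27.2%, 26.4% and 19.8% in CKO libraries, or 35.0 ± 4.32% and 24.5 ± 4.10% (SD, n = 3 each), and the groups did not overlap. The control lists were also the longer, with 98518, 92995 and 88051 peaks against 84068, 76822 and 68916. Over all regions the full-list means were 57.8% and 50.2%, and the difference for the lost regions was not tested against this. In the shortened lists, the regions open in all 6 pSSPC libraries had a gpSSPC peak in 69.3% and 66.5% on average in control and CKO libraries, those listed in 3 control and 1 CKO library in 24.2% and 23.2%, and gained regions in 35.1% and 37.3%. Of the lost regions, 552 (69.0%) had no peak in any shortened gpSSPC list and 66 (8.25%) had one in all 6, against 42.5% and 33.0% of all regions. In the full lists 394 (49.25%) had no peak in any and 103 (12.9%) had one in all 6. Examples with a peak in all 6 shortened lists lay in introns of *Igf1r*, the insulin-like growth factor receptor gene, and *Tbx4*, the hindlimb T-box gene. By the same rule a single lost region was lost in gpSSPCs as well (0.125%, against 0.327% of all regions), chr5:74956142-74956568, nearest to *Gm6116* and, of protein-coding genes, to *Chic2*.

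**Figure D4:**
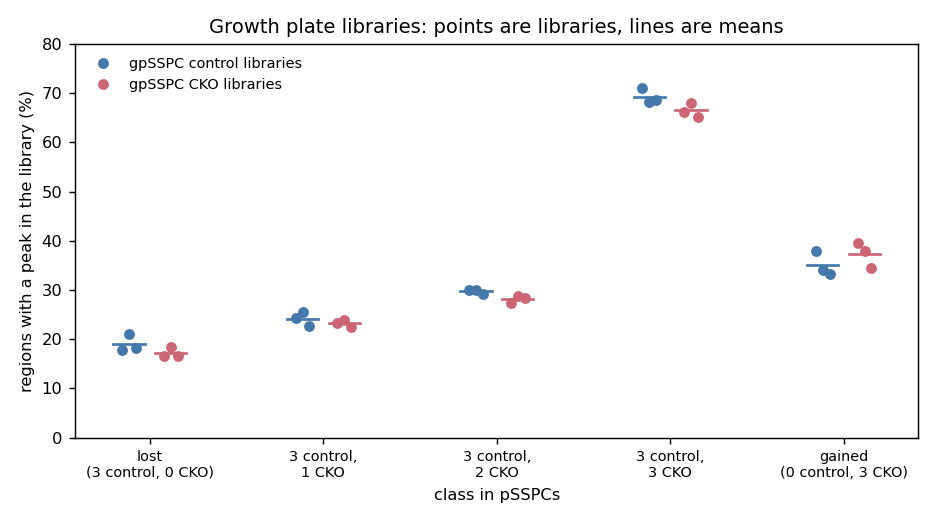
Percent of regions with a peak in each gpSSPC list, shortened to 59186 peaks, by the class of the region in pSSPCs, with points for libraries and lines for means. Lost regions were open in 19.0% on average in gpSSPC controls and in 17.2% in gpSSPC CKO libraries, and the points of the 2 groups overlap.

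The RNA measured whether genes nearest to lost regions differed between CKO and control pSSPCs. Libraries 2 and 3 of each RNA group differed by about the sampling noise and were summed to 1 sample, which left 2 samples against 2. *Zmpste24* had 1, 51 and 84 counts in control libraries 1 to 3 and 0, 28 and 41 in CKO libraries. At these depths its log2 fold change of -1.17 ± 2.17 (SE) did not pass the test (edgeR adjusted p = 1.00), it ranged from -2.06 without control library 1 to -0.24 without CKO library 1, and gene counts do not read exon 6 on its own. In gpSSPCs it had 11, 48 and 80 counts in controls and 2, 21 and 29 in CKO libraries.

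No gene passed an adjusted p of 0.05 by edgeR among 11878 tested in pSSPCs (0% higher and 0% lower), nor by DESeq2. At an unadjusted p of 0.05 edgeR gave 142 genes and DESeq2 318. Both counts were below a share of 0.05 of the genes tested, which is the share expected with no change. The 800 lost regions had 772 nearest genes, of which 215 were abundant enough to test. Of the nearest genes tested, 2 were higher and 4 lower in CKO at an unadjusted p of 0.05 and a log2 change beyond 0.25, against 0.261% and 0.935% of all genes. Their median log2 fold change was -0.13, against -0.02 for all genes tested, with 57.7% against 51.3% below 0. Taking the nearest protein-coding gene instead, 467 of 717 were tested, 2 higher and 6 lower at that unadjusted level, with a median of -0.19. For the 13 tested genes nearest to regions with no CKO peak the median was -0.25, and none had an unadjusted p under 0.05 by edgeR. By DESeq2 1 of the 13 did and was lower in CKO. The same count was found by edgeR with each library as a sample, and with the library number as a block (described below). In gpSSPCs, 205 nearest genes were tested, none at an unadjusted p under 0.05 and a log2 change beyond 0.25 (0.307% of all genes were higher and 0.166% lower), with a median of -0.01. The difference of the genotype effect between pSSPCs and gpSSPCs was tested for 237 nearest genes, and 1 was more positive and 1 more negative in pSSPCs at that unadjusted level, against 0.326% and 0.622% of all genes.

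Library 1 deviated from libraries 2 and 3 in a similar way in control and CKO samples. With the library number as a block, the fit rested on 2 pairs. In it 12 genes rose (0.101%) and 26 fell (0.219%) in CKO pSSPCs at an edgeR adjusted p of 0.05. Among the genes nearest to lost regions, *Angptl7* was the one that passed. With the block and each library as a sample, none did (*Angptl7* edgeR adjusted p = 0.17). It had 582, 185 and 188 CPM in control libraries 1 to 3 and 164, 62.7 and 57.5 CPM in CKO libraries 1 to 3. Every CKO library was below every control library, and library 1 was high in both groups. The log2 fold change was -1.82 ± 0.73 (SE, edgeR adjusted p = 1.00) without the block and -1.77 with it (edgeR adjusted p = 0.0053). Without the block it was -0.80 when control library 1 was left out and -2.67 when CKO library 1 was. In gpSSPCs *Angptl7* stood at 295, 92.4 and 96.4 CPM in controls and at 149, 68.8 and 61.8 in CKO libraries, a log2 fold change of -0.87 ± 0.66, and the difference between the cell types was -0.97 ± 1.07 (SE, edgeR unadjusted p = 0.39). The gene lies within an intron of *Mtor*, and whether reads were counted by strand is not given in the sources used here.

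Among nearest protein-coding genes, *Ebf1* and *Penk* also passed with the block, but not with each library as a sample (edgeR adjusted p = 0.20 and 0.23). *Ebf1*, a transcription factor of stromal and fat progenitors, had 2458, 705 and 852 CPM in control libraries 1 to 3 and 1604, 385 and 419 CPM in CKO libraries. Its groups overlapped, because library 1 was highest in both. With the block the log2 fold change was -0.82 (edgeR adjusted p = 0.025), without it -0.73 ± 0.72 (SE, adjusted p = 1.00), and without the block it was 0.29 when control library 1 was left out and -1.98 when CKO library 1 was. Its lost region, in an intron at chr11:44702617-44703466, had 1.87, 1.22 and 1.59 RPM in controls, 0.838 and 0.599 in CKO 1 and 3 and no peak in CKO 2. *Penk*, the enkephalin precursor gene, had 227, 343 and 360 CPM in controls and 41.6, 187 and 186 CPM in CKO libraries, with no overlap. The log2 fold change was -1.69 with the block (edgeR adjusted p = 0.038) and -1.36 ± 0.74 without it (SE, adjusted p = 1.00), or -0.64 when CKO library 1 was left out. The *Penk* region, chr4:4440050-4440690, lay 301893 bp upstream of the start and had 1.44, 1.22 and 1.06 RPM in controls and 0.559, 0.728 and 0.342 in CKO libraries.

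Other genes near lost regions reached an unadjusted p under 0.05 and did not pass the adjusted test. *Zbtb16*, a zinc finger gene of mesenchymal progenitors, stood at 141, 36.8 and 28.9 CPM in controls and 7.02, 15.7 and 15.9 CPM in CKO libraries, with a log2 fold change of -2.90 ± 1.00 (SE). The heights of the intronic region at chr9:48733831-48734101 overlapped between groups, at 2.87, 2.12 and 2.01 against 2.24, 2.84 and 1.63 RPM. The noncoding gene *9430078K24Rik* stood at 65.1, 33.5 and 39.97 CPM in controls and 8.63, 6.41 and 5.96 CPM in CKO libraries (-2.83 ± 1.03), and its region, in an intron at chr12:79683237-79683707, was called in all 3 full CKO lists. *Nfatc4*, a calcineurin target, stood at 123, 25.2 and 27.4 CPM in controls and 17.8, 12.2 and 12.5 CPM in CKO libraries (log2 fold change -2.33 ± 0.97). *Maf*, a transcription factor with 3 lost regions, stood at 165, 104 and 96.7 CPM in controls and 34.0, 48.1 and 47.2 CPM in CKO libraries (-1.71 ± 0.68). The other protein-coding genes with 3 or more lost regions did not reach the unadjusted level. *Tbx3* was at 1.75 ± 1.22, with 178 CPM in CKO 1 against 7.87 and 6.87 in CKO 2 and 3. *Nampt*, *Med13l* and *Flrt2* were at -0.63, -0.69 and -0.73, and *Dtwd2*, *Epha4*, *Acvr2a* and *Hnrnpa3* between -0.23 and 0.37. *H2al1j* and *Ptprt* had no counts. *Exoc6b*, an exocyst subunit gene, stood at 111, 41.9 and 51.8 CPM in controls and 10.3, 16.6 and 15.7 CPM in CKO libraries (-2.59 ± 0.88). *Samd9l*, an interferon-inducible gene, stood at 183, 64.8 and 70.3 CPM in controls and 8.63, 30.6 and 35.8 CPM in CKO libraries (-2.55 ± 0.90). *Maf*, *Exoc6b* and *Samd9l* were nearest only among protein-coding genes. For *9430078K24Rik*, *Nfatc4* and these 3 genes every CKO library was below every control. *Tnpo3*, a nuclear import receptor, went the other way, at 15.2, 18.4 and 19.1 CPM in controls and 135, 39.6 and 28.6 CPM in CKO libraries (2.26 ± 0.92). *Asap2* had 0, 1 and 0 counts in controls and 17, 16 and 21 in CKO libraries. *Thra*, nearest to the highest of the regions with no CKO peak, stood at 157, 49.98 and 55.9 CPM in controls and 42.6, 27.4 and 26.8 CPM in CKO libraries (-1.62 ± 0.79). Without the block *Thra* did not reach the unadjusted level by edgeR. Its unadjusted p was 0.037 by edgeR with the block and 0.045 by DESeq2, and neither passed adjustment. Of the genes next to the other high regions with no CKO peak, *Csf1* had a log2 fold change of 0.12 ± 0.58, *Cald1* -0.30 ± 0.45 and *Runx1t1* -0.25 ± 0.77, and *Fgf10*, farther from its region, had -2.67 ± 1.71. None of these 4 reached the unadjusted level without the block. With it *Fgf10* alone did, at -2.79 (edgeR unadjusted p = 0.033, adjusted p = 0.85). Of the 26 protein-coding genes at lost promoters, 12 were tested. *Angptl7* alone of them reached the unadjusted level without the block. *Nfix* was at -0.23 ± 0.50, *Adgrg2* at -1.79, *4930447C04Rik* at -2.39 and *Mthfs* at -0.0003. *Musk*, *Cradd*, *Fbxw17*, *Arl5c*, *Tulp4*, *Furin* and *Usp2* lay between 0.02 and 1.88. *Musk* and *Cradd* were higher in every CKO library than in any control. *Gli1* was not tested, and *Dcstamp* had no counts. Several of the folds in this paragraph rested on library 1. Without control library 1 the log2 fold change was -1.50 for *Zbtb16*, -1.70 for *Samd9l*, -0.86 for *Nfatc4* and -0.67 for *Thra*, and without CKO library 1 it was 0.94 for *Tnpo3*.

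**Figure D5:**
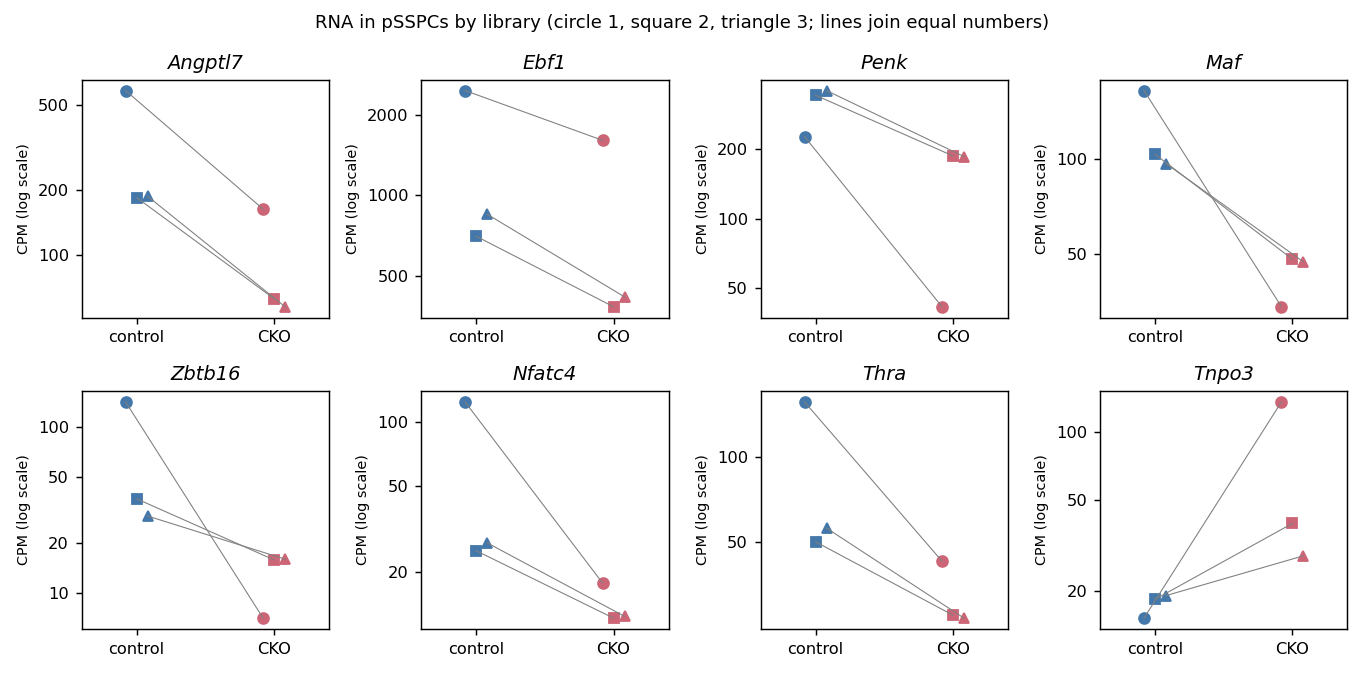
RNA level in CPM on a log scale in pSSPC control and CKO libraries for 8 genes nearest to lost regions, with lines joining equal library numbers. Angptl7 lies lower in every CKO library than in any control, at 164, 62.7 and 57.5 against 582, 185 and 188 CPM, whereas Ebf1 overlaps.

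The lost regions were next grouped by the function of their nearest protein-coding gene, and the shares of the larger lists are given beside those of all regions. For transcription factors of skeleton and limb, 16 lost regions (2.00%) belonged to 13 of the 65 genes listed, against 1.60% of all regions, and by nearest gene of any type 4 did (0.50%, against 0.474%). Besides *Tbx3*, *Ebf1*, *Nfix* and *Gli1* these were *Tbx4* and *Tbx15* (T-box factors of limb and skeleton), *Sox5* and *Sox6* (cartilage factors), *Meis1*, *Foxp1*, *Klf4*, *Zfhx3* and *Tcf7l2*, the last a mediator of Wnt signals. The *Sox6* region, chr7:115308046-115308838, 516268 bp from its start site, had 1.44, 1.22 and 1.55 RPM in controls, 0.559 and 0.577 in CKO 1 and 3 and no peak in CKO 2. The 4 *Tbx3* regions spanned from 331597 bp upstream to 15479 bp downstream of its start. Signalling ligands and receptors held 13 lost regions (1.625%, against 1.31%) at 12 of 74 genes. The ligands and their inhibitors were *Fgf1*, *Fgf10*, *Igf1*, *Pdgfc*, *Cxcl12*, the Wnt antagonists *Dkk2* and *Dkk3* and the activin antagonist *Fst*, and the receptors were *Fgfr1*, *Fgfr2*, *Igf1r* and *Fzd8*. The *Fgfr2* region, in an intron at chr7:130303390-130304137, had 1.94, 0.898 and 2.05 RPM in controls and 0.726, 0.926 and 0.642 in CKO libraries, so that control 2 and CKO 2 overlapped on this scale. In relative height they did not, with the lowest control at 32.4% and the highest CKO library at 27.3%. At *Fgfr1* the region 4293 bp upstream had 1.58, 1.55 and 1.44 against no peak, 1.85 and 0.941. By nearest gene of any type signalling genes held 4 (0.50%, against 0.515%). Extracellular matrix and integrin genes held 6 (0.75%, against 1.13%) by nearest protein-coding gene and 1 (0.125%, against 0.526%) by nearest gene of any type. The 6 lay at *Vcan*, *Cd44*, *Itga5*, *Itgbl1*, *Col6a3* and *Adamts1*. Of the genes of these 3 lists nearest to a lost region, none passed the adjusted edgeR test without the block, and *Ebf1* passed with it.

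Markers of other cells were few among the nearest genes. The endothelial list held 3 lost regions (0.375%, against 0.11%), at *Vwf*, *Emcn* and *Pecam1*, out of 9 genes. The *Vwf* region, chr6:125537591-125538058, had 1.22, 0.980 and 1.86 RPM in controls and 0.706 in CKO 3 alone. The *Emcn* region had 0.718, 0.898 and 0.834 RPM in controls and lower peaks in all 3 full CKO lists, at 0.559, 0.529 and 0.364. At *Pecam1* the groups overlapped, at 0.861, 0.653 and 1.52 RPM against no peak, 0.794 and 0.749. By nearest gene of any type the same 3 regions were 0.375% of the lost regions, against 0.0492% of all regions, and 1 region, at *Egfl7*, was gained. By that definition no region was lost at *Tek* (of 10), *Cldn5*, *Egfl7* and *Plvap* (of 3 each) or *Kdr* (of 2). Open in all 6 libraries were 4 of 9 regions at *Vwf*, 3 of 8 at *Pecam1* and 0 of 3 at *Emcn*. Endothelial marker RNA summed to 125, 175 and 168 CPM in control pSSPC libraries 1 to 3 and to 160, 223 and 221 CPM in CKO libraries, with *Plvap* the most abundant and none at 0 in every library. Erythroid marker RNA summed to 24.5, 1921 and 1803 CPM in controls and 162, 1320 and 1255 CPM in CKO libraries, and no lost region had an erythroid marker as nearest gene. Osteoblast markers held 2 (*Alpl* and *Phex*; 0.25%, against 0.0648% of all regions) and p53 targets 3 (*Mdm2*, *Sesn1* and *Eda2r*; 0.375%, against 0.143%). Chondrocyte (*Matn1*), marrow stromal (*Cxcl12*), pericyte (*Mcam*) and periosteal (*Gli1*) markers held 1 each (0.125%), against 0.110%, 0.151%, 0.0432% and 0.221% of all regions. These shares rest on 1 to 3 regions a list and were not tested. Pericyte and smooth muscle marker RNA summed to 128, 213 and 227 CPM in controls and 173, 365 and 358 CPM in CKO libraries, with *Rgs5* the most abundant. Periosteal marker RNA summed to 21148, 22618 and 22785 CPM in controls and 17961, 37289 and 41045 CPM in CKO libraries. Its most abundant gene, *Prg4*, which encodes lubricin, made up 2345, 8733 and 8776 against 7671, 26981 and 30599 CPM of it, and the other 17 markers summed to 18803, 13886 and 14009 against 10289, 10308 and 10446 CPM. At each library number *Prg4* was higher in CKO pSSPCs and the rest of the list lower. *Prg4* was not particular to pSSPCs. In gpSSPCs it stood at 1222, 16204 and 18245 CPM in controls and at 1499, 21280 and 24589 CPM in CKO libraries. Chondrocyte marker RNA in pSSPCs summed to 14073, 9983 and 8759 against 12793, 8428 and 7785 CPM. The part of cell makeup in the lost regions was not tested, and fewer cells of a type cannot be told apart from less open chromatin per cell in these bulk samples. Tendon, myeloid, lymphoid, muscle and Schwann cell markers, nuclear lamina genes and interferon-response genes had no lost region by nearest protein-coding gene, and each of these lists held at most 0.138% of all regions.

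Which regions counted as lost depended on how peaks were ordered and how many were kept. Ordering by summit pileup gave 977 lost regions, of which 480 matched the 800 (60.0%), and ordering by fold enrichment gave 842, of which 333 did (41.6%). The length of the lists mattered more, since 3 of the 800 (0.375%) were also lost with lists of 29593 peaks and 42 (5.25%) with full lists. A definition made after the values were seen, lost under all 3 orderings, kept 194 (24.2%). Every control stood above every CKO library in relative height in 172 of them, which ordering by height itself favours, and 28 had no peak in any full CKO list. The regions near *Penk*, *Vwf*, *Nfatc4*, *Sox6* and *Ebf1* and at the *Trpm3* and *Dcstamp* promoters were among them. *Angptl7*, *Thra*, *Csf1*, *Runx1t1*, *Cald1* and *Fgfr2* were lost by pileup but not by fold enrichment. *Nfix*, *Gli1*, *Zbtb16*, *Hmga2*, *Fgfr1* and *Alpl* were lost under neither.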

How the data were processed

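The deposited ATAC files were MACS2 2.2.7.1 peak lists, 1 per library, called by the authors on mm10 without a control at a q-value of 0.05, after Bowtie2 alignment and removal of duplicate and mitochondrial reads. In them the authors gave the summit pileup (signal, unscaled tags), the fold enrichment over background (a ratio), and −log10 of the p-value and q-value. Here each pSSPC list on 21 chromosomes was shortened to the 59186 peaks of the shortest (control 2) by −log10 q, lists were merged by 1 bp of overlap, and pileup was scaled to 1000000 tags after filtering (RPM). A peak present in all 3 control and in no CKO list made a region lost. Distances are to GENCODE M21 start sites, negative upstream. gpSSPC lists were shortened to the same length. The motif matches in RefSeq windows are plain letter matches.

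The deposited RNA tables held whole-number counts per gene, made by the authors with STAR and HTSeq from a modified Smart-seq2 protocol with molecular identifiers. Libraries summed to between 1333260 and 5315709 counts. Libraries 2 and 3 of every group differed by a chi-square of at most 0.98 per degree of freedom over genes of 5 to 99 counts and were summed to 1 sample, although genes of 20 or more counts gave 1.59 to 1.92, against up to 71.5 with library 1. Counts were tested with edgeR 4.0.16 (quasi-likelihood, TMM, filterByExpr, Benjamini-Hochberg adjustment over all genes tested), within each cell type and for the difference between cell types, with DESeq2 1.42.0 as an alternative. Same-numbered control and CKO libraries deviated together, with correlations of 0.559 to 0.585 in pSSPCs and 0.551 to 0.585 in gpSSPCs, so the numbers were taken to pair them. The labels do not say what they share, and after summing there are 2 independent pairs. The rule for named genes took those nearest to the 20 highest regions with no CKO peak (the main ones are described), those nearest to 3 or more lost regions, the nearest genes with an unadjusted p under 0.05, members of the gene lists, and *Zmpste24*. Of 18 genes that the study names for pSSPCs, some reported as higher and others as lower, 0 were nearest to a lost region. Of all 53801 genes counted in the RNA, 744 were a nearest gene and 717 a nearest protein-coding gene. A 0 among 18 therefore carries little weight, and it was not tested. Genes at lost promoters, genes passing with the block, and *Exoc6b* and *Samd9l* were named after their values were seen. The members and the lists were chosen with earlier results of these data known. The edgeR test was also run on simulated counts. Known changes had to be recovered at a small simulated spread, and recovery at the spread of these samples was not required. Heights and shares carry no test.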

Additional observations from a re-analysis of the deposited data

How the results depend on the processing

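The number of lost regions, 800, depended on the definition: 138 with full lists (42 of them shared with the 800), 417 with lists of 29593 peaks (3 shared), 977 and 842 when ordered by pileup and by fold enrichment, and 608 when peaks had to cover 50% of the region. Without 1 library it ranged from 1208 to 1747, being 1326, 1747 and 1732 without control 1, 2 or 3 and 1333, 1233 and 1208 without CKO 1, 2 or 3. The gpSSPC control mean moved to 21.3% with full lists and 13.5% with lists of 29593 peaks, and the CKO mean to 11.4% and 13.5%, to 20.9% by fold enrichment and to 15.7% with coverage of 50%. Reading the same 800 regions in full gpSSPC lists, an alternative chosen after seeing the data, gave 35.0% and 24.5%. Without 1 library these means ranged from 16.9% to 21.4% and from 16.0% to 20.0%.

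RNA calls, 0 in pSSPCs, came to 12 higher and 26 lower with the replicate block, 2 and 3 with the block and each library as a sample, and 1 and 4 without a filter. In gpSSPCs they came to 5 and 7 with the block, 1 and 0 by DESeq2, and 1 and 2 without a filter. The difference between cell types gave 3 and 4 with the block, 6 and 6 with the block and each library as a sample, and 0 and 2 without a filter. Leaving out 1 library gave 0 to 1 lower in pSSPCs (1 without CKO library 1), and 0 to 1 higher and 0 to 3 lower in gpSSPCs (1 and 3 without CKO library 1). Without library 1 of a group its lone remaining sample was assumed to vary like the other group. Among nearest genes, 2 higher and 4 lower passed the unadjusted level, 1 lower passed with the block (0 with the block and each library as a sample), and 3 lower did so among nearest protein-coding genes, an alternative chosen after seeing the data. The *Ebf1* log2 fold change, -0.73, reversed to 0.29 without control library 1 and was -1.98 without CKO library 1. The causes were not tested.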
